A study of Mus musculus with 2 samples.

Results

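The members described here are 9 genes that control the making of plasmin and the formation of clots, followed across the cells of day 5 skin wounds: *Plau*, *Plat*, *Plaur*, *Serpine2*, *Serpinb2*, *F3*, *F13a1*, *Thbd* and *Procr*. They are 9 of the 31053 genes of the deposited count tables, taken by symbol, and their raw unique molecular identifiers (UMIs, 1 for each captured RNA molecule) were counted in cells with at least 500 detected genes and at most 6% mitochondrial UMIs. Of 15514 such cells, 14557 remained after removal of likely doublets.

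Plasmin, the protease that dissolves fibrin and helps cells to move through a clot, is cut from plasminogen by urokinase (*Plau*) and by tissue plasminogen activator (*Plat*). The urokinase receptor (*Plaur*) gathers urokinase at the cell surface, and the serpins protease nexin 1 (*Serpine2*) and plasminogen activator inhibitor 2 (*Serpinb2*) block the activators, the former also thrombin. Tissue factor (*F3*) starts coagulation, the A chain of factor XIII (*F13a1*) crosslinks fibrin, and thrombomodulin (*Thbd*) and the endothelial protein C receptor (*Procr*) turn thrombin toward the activation of the anticoagulant protein C.

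The study sequenced live (7AAD-negative) cells of splinted excisional wounds of mouse back skin, 1 library per group, each from 3 pooled mice according to the methods. By the labels, both groups were Mrc1-DTR mice, in which the receptor of diphtheria toxin is driven from the *Mrc1* promoter (*Mrc1* encodes CD206, found on many tissue macrophages), and the control received PBS whereas the other group received diphtheria toxin (DTX). The methods instead describe the controls as wild-type mice that were given toxin, and the difference could not be settled. The deposited tables hold 12058 cells in the library labelled control and 11031 in the one labelled DTX. The study's text gives these cell numbers to the groups in the opposite order, but its account of which group holds more immune cells follows the labels. Groups follow the labels here, and the direction of each difference between the libraries depends on them. The mice were C57BL/6 and 7 to 9 weeks old, and the tissue was a 10 mm punch that holds the wound bed with skin around it. With 1 library per group there was no test between conditions. The 95% intervals cover counting error only, and differences between mice, captures and days cannot be told apart from the treatment.

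The control and DTX libraries kept 7944 and 6613 cells, with medians of 9579.5 and 7286 UMIs. Clusters were named from marker genes, and 9 classes with at least 50 cells in each library were compared. From control to DTX, macrophage-like cells went from 21.5% to 67.1% of kept cells, fibroblast-like cells from 38.6% to 9.93% and epithelial-like cells from 26.0% to 3.55%. The targeted gene *Mrc1* was checked first, in CPM (UMIs of a gene per 1e+06 UMIs of the class). Its RNA was still present in the library labelled DTX, where macrophage-like cells had 428 CPM against 491 CPM in the control library, a log2 ratio of -0.20, and over all kept cells it was higher there, at 268 against 65.4 CPM. Scrublet called no doublets in the DTX library, where the top 8% of scores were removed instead, and 13 barcodes were shared by kept cells of both libraries.

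The members occupied different cells, and for most of them 1 or a few classes held the bulk of the RNA. *Serpinb2* and *F3* came mainly from epithelial-like cells, with 91.6% and 86.4% of their UMIs in the control and 68.5% and 59.3% in the DTX library. *Plat* came from fibroblast-like cells (92.1% and 81.8%). *F13a1* came mainly from macrophage-like cells (58.4% and 94.0%), with 36.3% and 3.51% in fibroblast-like cells. The pericyte-like class held 1.10% of control UMIs and 3.06% of DTX UMIs, yet in the DTX library it held 62.2% of the UMIs of *Serpine2*, 47.6% of *Procr*, 34.0% of *Thbd*, 19.9% of *Plau* and 18.0% of *F3*.

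**Figure D1:**
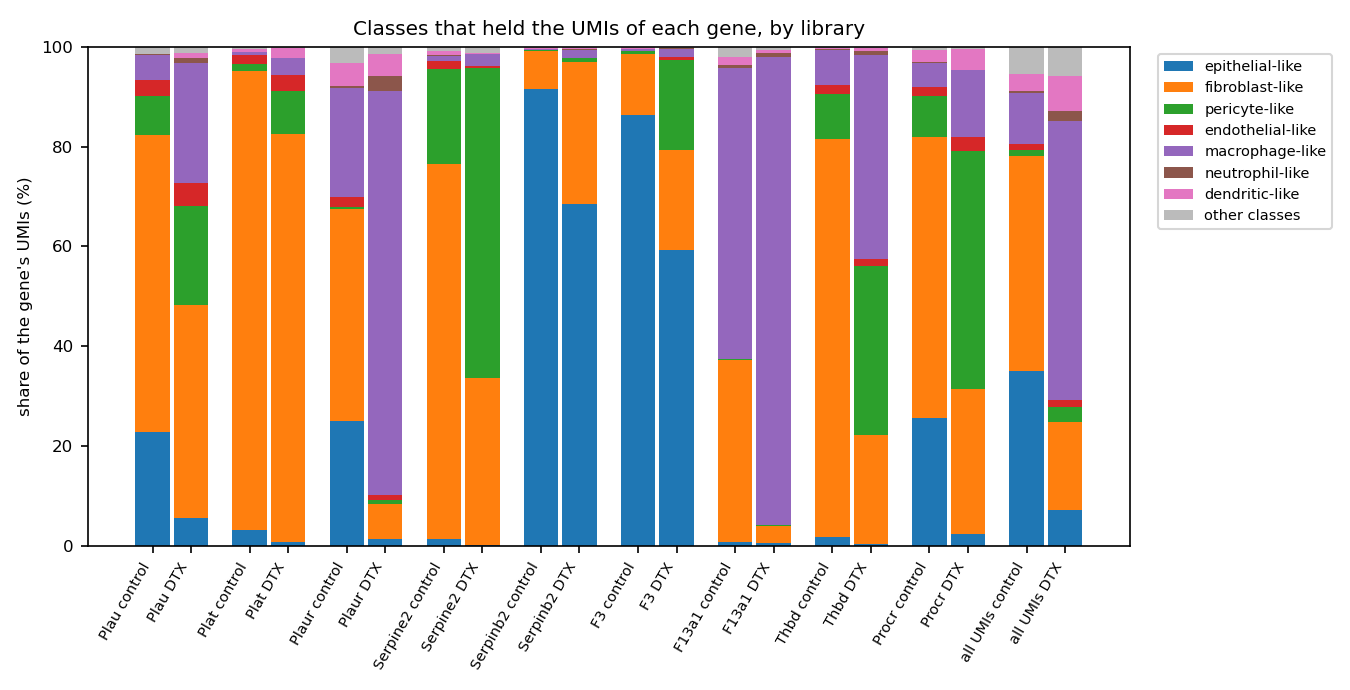
Share of each gene's UMIs (percent, y axis) found in each class, for the control and the DTX library (x axis), with the share of all UMIs at the right. The pericyte-like share of *Serpine2* was 19.0% in the control and 62.2% in the DTX library, while that of all UMIs was 1.10% and 3.06%.

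Because the classes changed so much in number, library totals and levels within classes gave different pictures. Over the whole library *Serpinb2* was lower in the DTX library (2458 against 486 CPM, log2 ratio -2.34), as were *F3* (318 against 85.8 CPM, -1.88) and *Plat* (107 against 52.8 CPM, -1.01). The totals of *F13a1* (36.1 against 162 CPM, 2.14), *Plaur* (187 against 496 CPM, 1.40) and *Serpine2* (27.8 against 61.8 CPM, 1.13) were higher. When the DTX levels of each class were weighted by the class shares of the control library, the ratios shrank to -0.30 for *Serpinb2*, -0.08 for *F3*, 0.05 for *Plat*, 0.37 for *F13a1* and 0.22 for *Plaur*. Only that of *Serpine2*, 1.23, kept its size among these 6, and *Plau*, *Thbd* and *Procr* then had ratios of 0.28, 0.18 and 0.03.

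**Figure D2:**
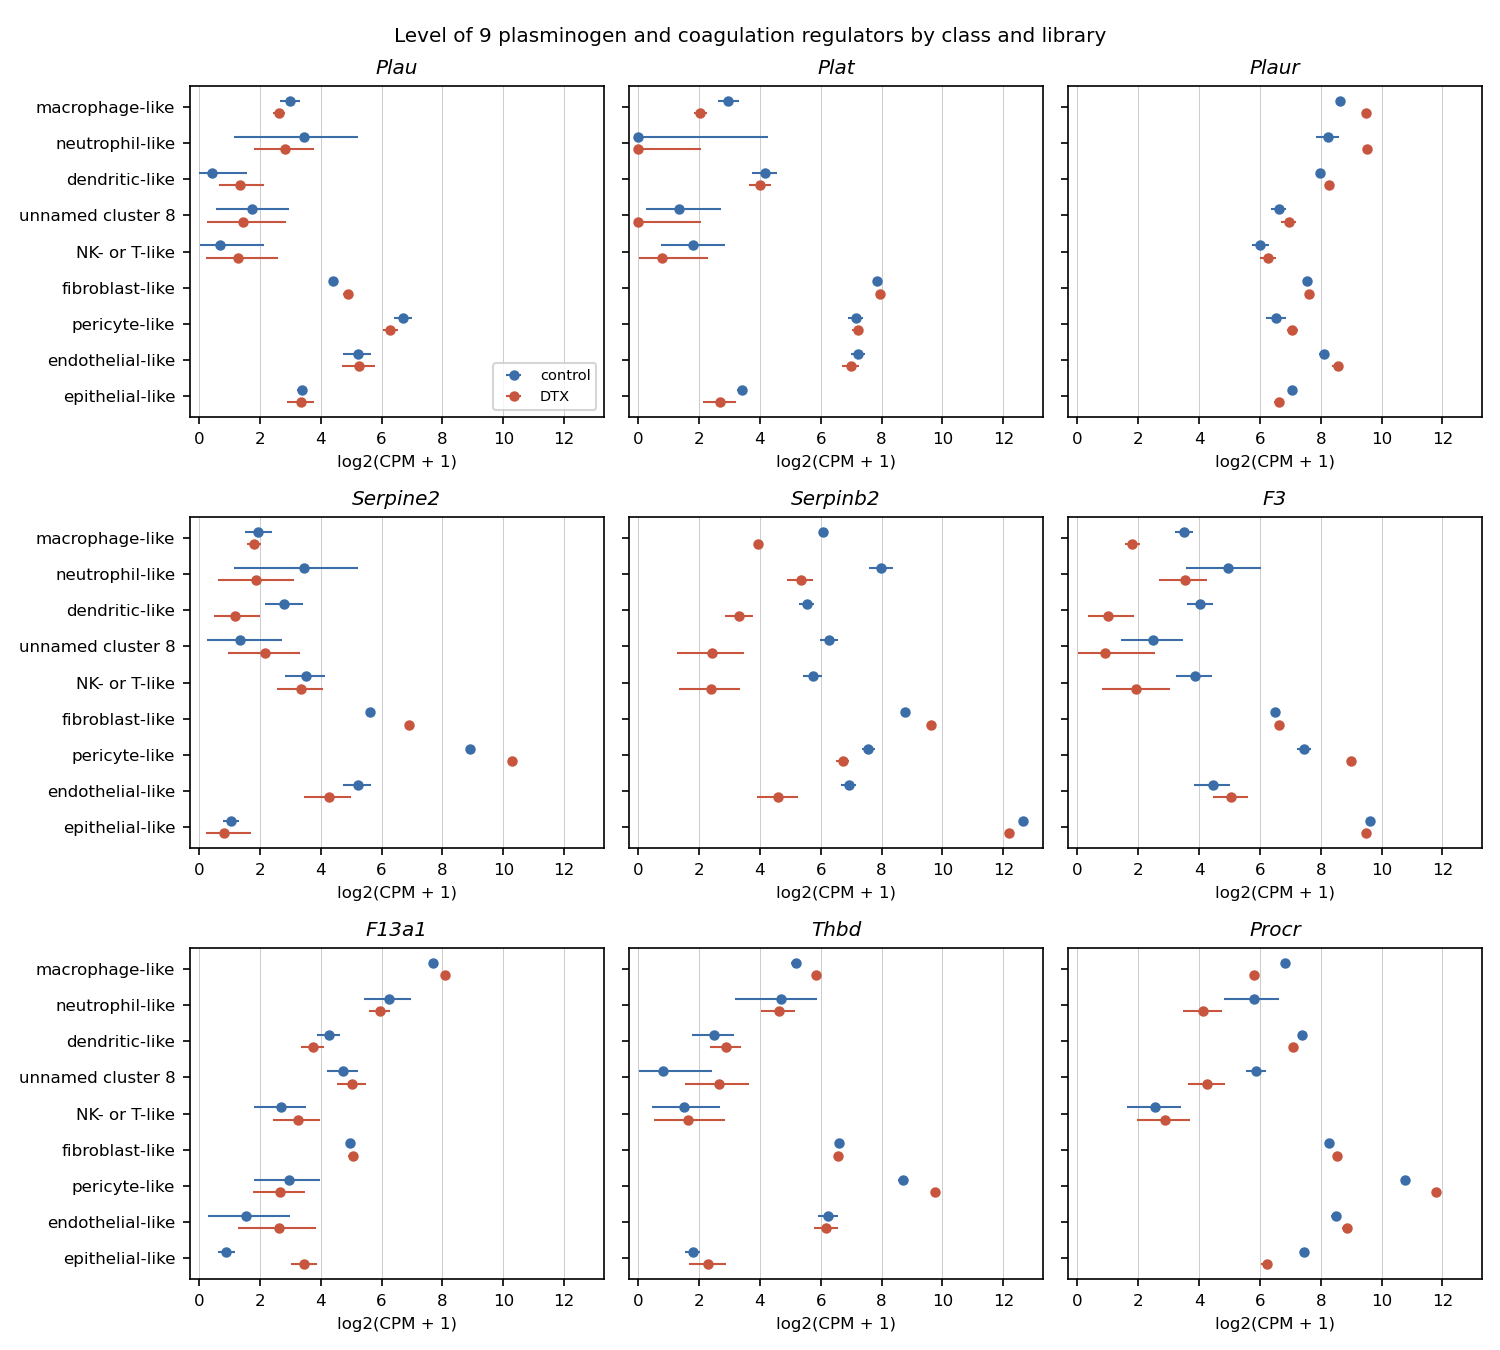
Level of each member as log2(CPM + 1) (x axis) in 9 classes (rows), for the control (blue) and DTX (red) libraries, with exact 95% Poisson intervals for counting error. *Procr*, *Thbd* and *Serpine2* were highest in pericyte-like cells, *Serpinb2* and *F3* in epithelial-like cells, *Plat* in fibroblast-like cells and *F13a1* in macrophage-like cells.

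Within classes, a gene with at least 50 UMIs over both libraries was taken as measured and a ratio of at least 2-fold was called. In pericyte-like cells 4 of the 8 measured members were called higher in the DTX library (2.22% of all measured genes were) and none lower (2.11%). In macrophage-like cells none of 9 was higher (1.61%) and 3 were lower (3.31%), and in fibroblast-like cells 1 of 9 was higher (2.65%) and none lower (1.4%). Epithelial-like cells had 1 of 8 higher (2.67%) and 1 lower (2.07%), and neutrophil-like cells 1 of 3 higher (5.98%) and 1 lower (4.44%). None was higher in dendritic-like cells (1.01%), cluster 8 (2.09%), NK- or T-like cells (1.12%) or endothelial-like cells (1.86%), while 1 of 5 (1.63%), 2 of 4 (1.63%), 1 of 2 (1.29%) and 1 of 7 (2.65%) were lower there. Cluster 8, left without a name, was led by *Cst3* and MHC class II genes.

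The pericyte-like class, of 61 control and 112 DTX cells, had the most members higher in the DTX library, namely *Serpine2*, *F3*, *Thbd* and *Procr*. The median log2 ratio was 0.77 over the measured members and -0.01 over all measured genes.

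*Procr* stood out in level. It was at 1753 CPM (1668 to 1842) in control and at 3534 CPM (3445 to 3625) in DTX pericyte-like cells, a log2 ratio of 1.01 (0.93 to 1.09). Endothelial-like cells, which the receptor is named after, had 361 and 464 CPM. After thinning to 1000 UMIs per cell, a UMI of *Procr* was found in 67.8% (54.4% to 79.4%) of 59 control and 74.1% (65.0% to 81.9%) of 112 DTX pericyte-like cells, and in 0.893% and 0.662% of NK- or T-like cells, the class taken as background. Median depths before thinning were 13628 and 14579.5 UMIs in pericyte-like cells and 6534 and 8059 in NK- or T-like cells, and without thinning the pericyte-like shares were 93.4% and 95.5%.

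*Serpine2* in these cells had 479 control and 1256 DTX CPM, a log2 ratio of 1.39 (1.24 to 1.54). *F3* had 176 and 504 CPM, a ratio of 1.52 (1.27 to 1.77). *Thbd* had 416 and 855 CPM, a ratio of 1.04 (0.87 to 1.21). For each of the 4 the DTX library was the higher one and the counting intervals did not overlap. *Plaur* (91.7 and 133 CPM), *Plat* (141 and 148 CPM), *Plau* (103 and 77.4 CPM) and *Serpinb2* (189 and 104 CPM) stayed within 2-fold, and *F13a1* had only 6 and 9 UMIs.

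The class was not uniform, and it split into 3 subclusters. In the first, led by *Pi15* and *Igfbp5* (23 control and 61 DTX cells), *Procr* was at 2347 and 4730 CPM, *Thbd* at 743 and 1349 CPM and *F3* at 164 and 751 CPM. In the second, led by *Col15a1*, *Pclaf* and *Cd248* (26 and 37 cells), *Serpine2* was at 343 and 955 CPM, *F3* at 163 and 308 CPM and *Procr* at 1268 and 1604 CPM. The third, of 12 and 14 cells led by keratin genes, had *Procr* at 2867 and 6354 CPM and *Thbd* at only 34.6 and 82.2 CPM. In the third, *F3* (259.8 and 268.6 CPM) and *Thbd*, from 4 and 15 UMIs, differed by less than counting error. In the other 10 pairs of values of the 4 genes the DTX library was the higher one, beyond counting error.

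The first subcluster made up 37.7% of control and 54.5% of DTX pericyte-like cells. With the DTX subclusters weighted by their control shares of UMIs, the log2 ratios were 1.22 for *Serpine2*, 1.24 for *F3*, 0.72 for *Thbd* and 0.79 for *Procr*, so that *Thbd* and *Procr* were then under 2-fold. They were also at 1.00 and 0.97, just under it, without doublet removal, and *Procr* was at 0.51 with up to 10% mitochondrial UMIs and at 0.90 with every cell weighted equally. The pericyte-like class held 173 cells with the 6% limit and 334 with the 10% limit. Markers of the class did not move as a set: *Rgs5* was at 4606 and 5903 CPM, *Abcc9* at 139 and 271 CPM, *Acta2* at 7109 and 4319 CPM and *Myh11* at 624 and 402 CPM. In these cells 8 fibroblast markers summed to 16212 control and 10904 DTX CPM, and 10 keratinocyte markers to 1118 and 305 CPM. Their part in the ratios was not tested.

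RefSeq promoter windows were available for 6 of the 9 members. They are shown because of TGANTCA, a loose 7-letter form of the AP-1 motif that allows any base at its centre and reads alike on both strands. In the 250 bases before a start site, 4 of these 6 genes (*F3*, *Plaur*, *Procr*, *Serpinb2*) hold it, against 7.82% of all 27025 genes with a window. A stricter form with C or G at the centre was not counted over all genes, and the *Serpinb2* match, with A there, lacks it. *Serpine2* is the gene that was higher in pericyte-like cells with a window but no match. The sequences are from build GRCm38.p6, written 5′ to 3′, and capitals mark the motif. They end at the base before the RefSeq start site, except that the 100 bases next to it for *Procr* and the 31 for *Serpine2* are left out, since they lie in an annotated untranslated region.

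F3 (chr3:121723287-121723536, plus strand, 250 bases): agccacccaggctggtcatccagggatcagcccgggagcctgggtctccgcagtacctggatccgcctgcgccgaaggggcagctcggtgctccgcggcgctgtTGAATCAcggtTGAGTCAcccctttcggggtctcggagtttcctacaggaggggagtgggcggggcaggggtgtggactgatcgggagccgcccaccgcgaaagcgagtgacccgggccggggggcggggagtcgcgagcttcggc
Plaur (chr7:24462233-24462482, plus strand, 250 bases): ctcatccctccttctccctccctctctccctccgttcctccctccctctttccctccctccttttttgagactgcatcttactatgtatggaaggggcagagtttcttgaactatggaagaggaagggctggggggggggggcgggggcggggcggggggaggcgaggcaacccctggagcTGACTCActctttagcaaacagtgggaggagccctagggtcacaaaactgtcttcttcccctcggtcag
Procr (chr2:155750967-155751116, plus strand, 150 bases): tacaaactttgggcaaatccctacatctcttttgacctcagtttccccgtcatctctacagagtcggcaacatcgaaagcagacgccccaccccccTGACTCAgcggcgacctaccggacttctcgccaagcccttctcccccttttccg
Serpinb2 (chr1:107511173-107511422, plus strand, 250 bases): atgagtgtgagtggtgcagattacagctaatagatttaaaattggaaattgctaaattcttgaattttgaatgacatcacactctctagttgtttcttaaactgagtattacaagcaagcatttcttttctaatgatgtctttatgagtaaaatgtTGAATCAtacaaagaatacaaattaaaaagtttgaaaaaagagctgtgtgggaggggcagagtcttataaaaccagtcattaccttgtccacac
Serpine2 (chr1:79858697-79858915, minus strand, 219 bases): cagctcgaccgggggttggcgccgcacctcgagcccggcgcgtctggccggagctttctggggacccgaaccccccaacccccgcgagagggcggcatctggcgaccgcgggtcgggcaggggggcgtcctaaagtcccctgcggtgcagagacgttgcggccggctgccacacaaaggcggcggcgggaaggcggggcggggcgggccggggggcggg

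Counted from the RefSeq start site, *F3* held the motif as TGAATCA at -146 to -140 and as TGAGTCA at -135 to -129. *Plaur* held TGACTCA at -69 to -63, *Procr* TGACTCA at -154 to -148 and *Serpinb2* TGAATCA at -94 to -88. The RefSeq start of *Procr* lies 100 bases downstream of the GENCODE start given for the gene further on. The window of *Serpine2* lies inside the GENCODE gene, downstream of its start at 79861180. The bases before that GENCODE start were not searched. The letters of a cyclic AMP response element (TGACGTCA) were in none of the 6 genes, and in 1.77% of all. GGNNTTTCC, a form of the NF-kappaB motif searched on both strands, was found in *F3* (-112 to -104) and in the second window of *F13a1* (-128 to -120), and in 5.62% of all genes. TATAAA was found in *Serpinb2* (-29 to -24), and in 14.3% of all genes. None of these matches overlapped another. They describe letters in a window, and binding of a factor was not measured here.

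Among the plasminogen activators, *Plau* (chromosome 14, 20836660 to 20843385, plus strand of GRCm38) was scarce, with 1173 UMIs in the control and 654 in the DTX library. It was highest in pericyte-like cells, followed by endothelial-like (36.2 and 37.7 CPM) and fibroblast-like cells (20.0 and 28.8 CPM). In the DTX library the intervals of endothelial-like and fibroblast-like cells overlapped. *Plau* was past 2-fold in no class in which it was measured, with log2 ratios from -0.41 in pericyte-like to 0.51 in fibroblast-like cells. Of its fibroblast-like UMIs, 576 of 699 in the control and 243 of 280 in the DTX library lay in the subcluster led by *Sfrp2* and *Mfap5*. There *Plau* was at 45.6 and 46.1 CPM, a ratio of 0.01. That subcluster made up 27.8% of control and 45.5% of DTX fibroblast-like cells.

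*Plat* (chromosome 8, 22757727 to 22782844, plus strand) was a gene of stromal and vessel cells. Fibroblast-like cells had 229 and 244 CPM, endothelial-like cells 148 and 126 CPM, and epithelial-like cells 9.55 and 5.41 CPM, and no UMI was found in neutrophil-like cells, where 3 UMIs would be 14.96 and 2.63 CPM. Within fibroblast-like cells it was concentrated in the *Plac8*-like subcluster, led by *Sfrp2* and *Mfap5*, at 456 and 366 CPM, while the subcluster led by *Igfbp2* and *Grem1* had 60.4 and 78.5 CPM. No measured class passed 2-fold, and the lowest ratio was -0.92 in macrophage-like cells, from 57 and 96 UMIs.

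The receptor *Plaur* (chromosome 7, 24462484 to 24475968, plus strand) was the most widespread member. It was lowest in NK- or T-like cells, which still had 63.8 and 76.2 CPM, and in the control library the intervals of macrophage-, neutrophil- and endothelial-like cells overlapped in turn. In neutrophil-like cells it had 299 CPM (228 to 385) in the control and 737 CPM (688 to 788) in the DTX library, a log2 ratio of 1.30 (0.92 to 1.70), from 60 and 841 UMIs. These cells were shallow, with median depths of 1229 and 1921 UMIs. Markers of the class moved too: 8 neutrophil markers summed to 41231 and 89528 CPM there, with *S100a9* at 22810.4 and 54922 CPM and *Cxcr2* at 205 and 521 CPM, whereas *Csf3r* (599 and 559.8 CPM), *Mmp9* (399 and 377 CPM) and *Il1r2* (2070.0 and 1525 CPM) were not higher. Macrophage markers in these cells, at the ratio of macrophage-like cells, would give 51.3% and 47.9% of the *Plaur* UMIs. *Lyz2* and *Cd14* are among these markers, and neutrophil-like cells' own RNA of them cannot be told apart from that of macrophages. The part of the neutrophil markers or of macrophage RNA in the *Plaur* ratio was not tested. In macrophage-like cells the levels were 398 CPM (384 to 412) and 719 CPM (709 to 728), a ratio of 0.85 (0.80 to 0.90), and thinned shares of cells with a UMI were 27.5% and 48.4%, against 4.02% and 7.28% in NK- or T-like cells.

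The macrophage-like subclusters differed between the libraries: 73.9% of control cells lay in a subcluster led by *Ccl8* and *H2-Eb1* and 8.43% of DTX cells did, whereas the *Vcan*-like, *Cd9*-like and *Ccl7*-like subclusters held 2.17%, 0.469% and 2.70% of control and 24.1%, 22.3% and 20.5% of DTX cells. *Plaur* in the DTX library was highest in the *Cd9*-like (888 CPM) and *Vcan*-like (887 CPM) subclusters and lowest in the *Klf2*-like one (264 CPM). In the *Ccl8*-led subcluster it was at 403 and 544 CPM. Weighted by the control shares, the ratio of the class was 0.43. In dendritic-like cells it was at 319.9 and 382 CPM in a subcluster led by *Lyz2*, *Cd14* and *Ifitm1*, where *Plaur* was itself among the leading genes, and at 12.8 and 14.8 CPM in one led by *Fscn1*, *Ccl5* and *Ccl22*. Macrophage markers at the macrophage-like ratio would give 35.8% and 47.9% of the *Plaur* UMIs of the former. *Lyz2* and *Cd14* are among these markers, so RNA of these cells and of macrophages cannot be told apart there. Epithelial-like cells had 133 and 97.1 CPM, and the subcluster led by *Igfbp3*, *Itga2* and *Mmp13* was highest, at 341 and 273 CPM.

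**Figure D3:**
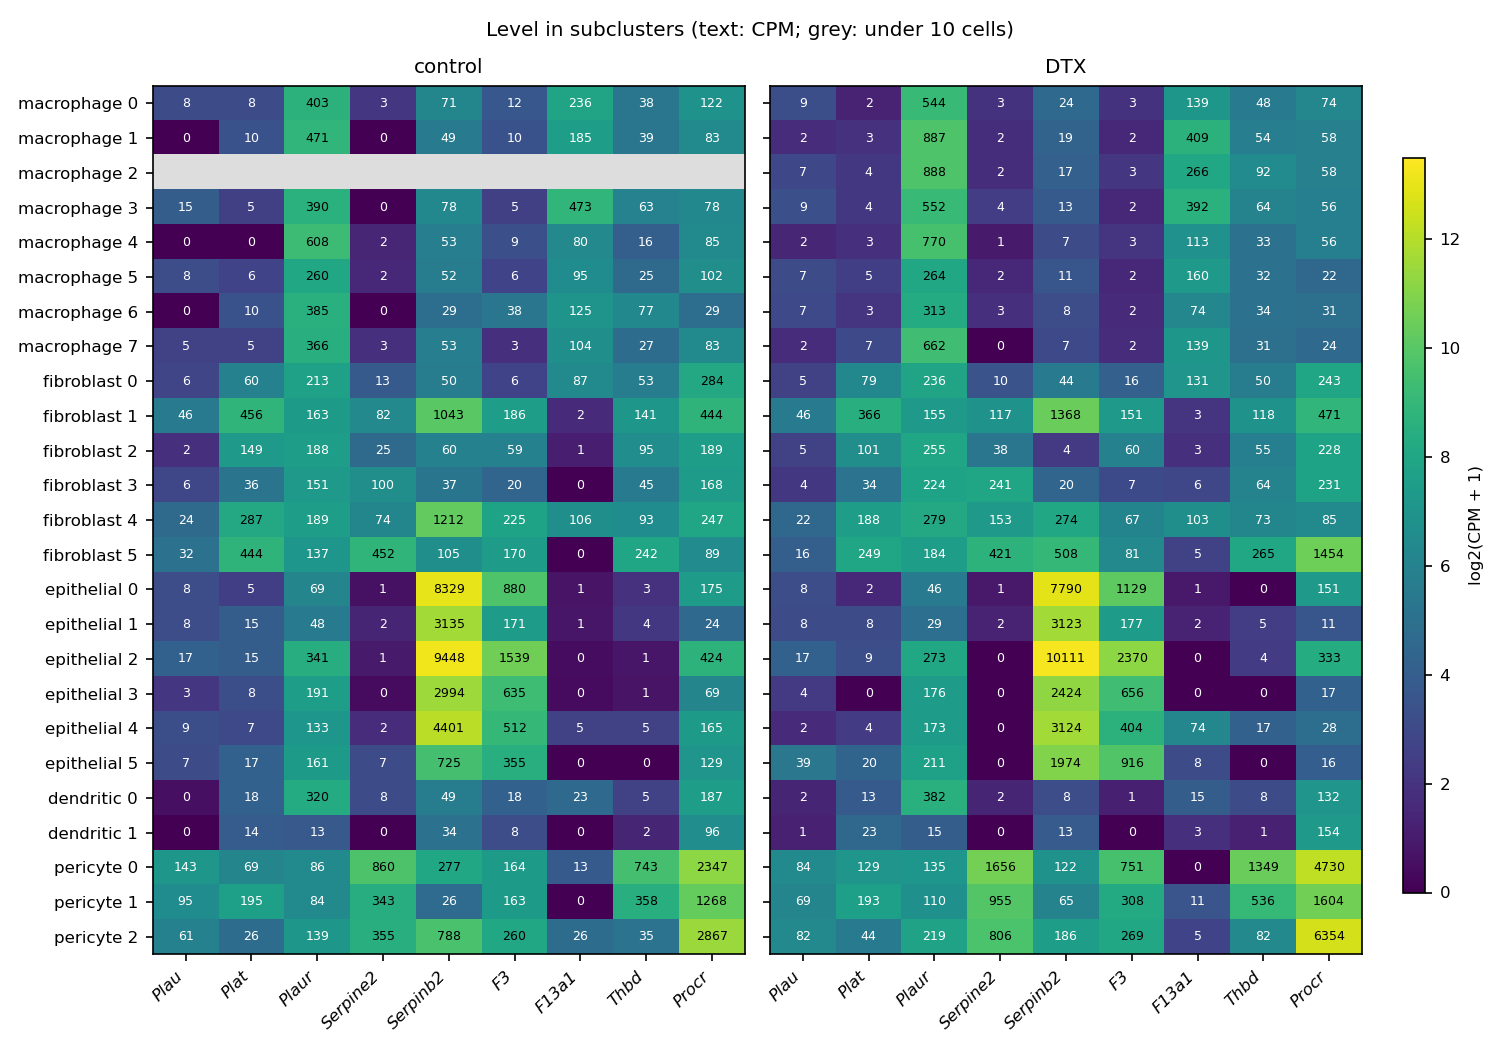
Level of each member (columns) in subclusters of 5 classes (rows) in the control and DTX libraries. Colour gives log2(CPM + 1) and the text CPM, with grey where under 10 cells were present, and in the terms used here macrophage 0, 1, 2, 3 and 5 are the *Ccl8*-led, *Vcan*-, *Cd9*-, *Ccl7*- and *Klf2*-like subclusters, fibroblast 0, 1, 3 and 5 the *Igfbp2*-led, *Plac8*-like, *Crabp1*-like and *Apod*-led ones, and epithelial 0, 1, 2 and 4 the spinous-like, infundibulum-like, *Igfbp3*-led and *Lyz2*-led ones. *Procr* is brightest in the pericyte-like rows, *Serpinb2* and *F3* in the epithelial-like rows, and *Plaur* in the macrophage-like rows.

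Of the inhibitors, *Serpine2* (chromosome 1, 79794197 to 79861180, minus strand) was next highest in fibroblast-like cells, with 48.4 CPM (46.1 to 50.8) in the control and 117 CPM (110 to 124) in the DTX library, a log2 ratio of 1.26 (1.15 to 1.37). Within its subclusters the ratio was 0.52 in the *Plac8*-like one (81.5 and 117 CPM) and 1.26 in the *Crabp1*-like one (99.9 and 241 CPM). It was 0.63 in the *Ctla2a*-led one and 1.04 in the mixed one led by *Cd74* and *Lyz2*. The *Igfbp2*-led one, with 36.9% of control cells the largest there, had 13.1 and 9.81 CPM, a ratio of -0.38 (-1.15 to 0.33). The smallest, led by *Apod* and *Ccl11*, had a ratio of -0.10 (452 and 421 CPM, 20 and 24 cells). The *Plac8*-like subcluster made up 27.8% of control and 45.5% of DTX fibroblast-like cells, and at control shares the ratio of the class was 0.59. Epithelial-like cells had 30 and 3 UMIs in all.

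*Serpinb2* (chromosome 1, 107511423 to 107535478, plus strand) had 6427 CPM (6398 to 6457) in control and 4706 CPM (4638 to 4775) in DTX epithelial-like cells, a log2 ratio of -0.45. The subcluster led by *Igfbp3* and *Itga2* (9448 and 10111 CPM) and the spinous-like one (8329 and 7790 CPM) were highest, and the infundibulum-like one had 3135 and 3123 CPM. At control subcluster shares the ratio was -0.05. Fibroblast-like cells had 433 and 785 CPM, a ratio of 0.86. The *Plac8*-like subcluster, of which *Serpinb2* is itself a leading gene, held 13167 of 15173 control UMIs and 7211 of 7627 DTX UMIs. It made up 27.8% of control and 45.5% of DTX fibroblast-like cells. There *Serpinb2* was at 1043 and 1368 CPM, a ratio of 0.39. In the subclusters led by *Igfbp2*, *Ctla2a* and *Coch* it was between 3.84 and 60.5 CPM, while the mixed one led by *Cd74* and *Lyz2* (45 cells in each library) had 1212 and 274 CPM and the *Apod*-led one 105 and 508 CPM. The study lists *Serpinb2* among genes of a macrophage subset chosen on these cells, which is no independent evidence of its source.

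In immune cells *Serpinb2* was lower in the DTX library. Macrophage-like cells had 65.8 CPM (60.4 to 71.6) in the control and 14.4 CPM (13.1 to 15.8) in the DTX library, a log2 ratio of -2.12. Neutrophil-like cells had 254 and 39.4 CPM (-2.66), dendritic-like cells 45.7 and 9.03 CPM (-2.22), NK- or T-like cells 52.2 and 4.23 CPM (-3.35), and cluster 8 76.9 and 4.37 CPM (-3.86). Endothelial-like cells had 120.2 and 23.4 CPM (-2.31). Of the 99 control UMIs of cluster 8, 54.5% lay in 1 cell, as did 61.1% of the 18 DTX UMIs of endothelial-like cells. In each of these 6 classes the control was the higher library.

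Keratinocyte marker RNA was also lower in the DTX library in each of these classes. For the control and then the DTX library, 10 keratinocyte markers summed to 549.6 and 165 CPM in macrophage-like, 1796 and 388 CPM in neutrophil-like, 495 and 158 CPM in dendritic-like, 731 and 262 CPM in NK- or T-like and 669 and 92.2 CPM in endothelial-like cells, and to 448 and 84.8 CPM in cluster 8. None of the 10 markers was at 0 in these classes, except for 2 in endothelial-like cells of the DTX library. If each keratinocyte marker UMI carried *Serpinb2* in the ratio of the epithelial-like cells of its library, macrophage-like cells would have had 700.2 and 546 UMIs, against 550 and 442 seen, which is 127% and 123% of them. The same share was 108% and 106% in neutrophil-like cells, 165% and 189% in dendritic-like cells, 88.9% and 209% in cluster 8, 214% and 669% in NK- or T-like cells and 85.0% and 42.5% in endothelial-like cells, but 14.9% and 1.33% in fibroblast-like cells. Mast-like cells, 34 and 19 and so too few to compare, had 1371 and 394 CPM, with a share of 26.1% and 9.08%. In NK- or T-like cells (214% and 669%) and dendritic-like cells (165% and 189%) the epithelial-like ratio gave more *Serpinb2* than was seen, so it did not hold there. The same was true of macrophage-like cells (127% and 123%) and of cluster 8 in the DTX library (209%). In neutrophil-like cells (108% and 106%) the ratio gave slightly more than the 51 and 45 UMIs seen. The part of keratinocyte RNA in the *Serpinb2* values was not tested.

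**Figure D4:**
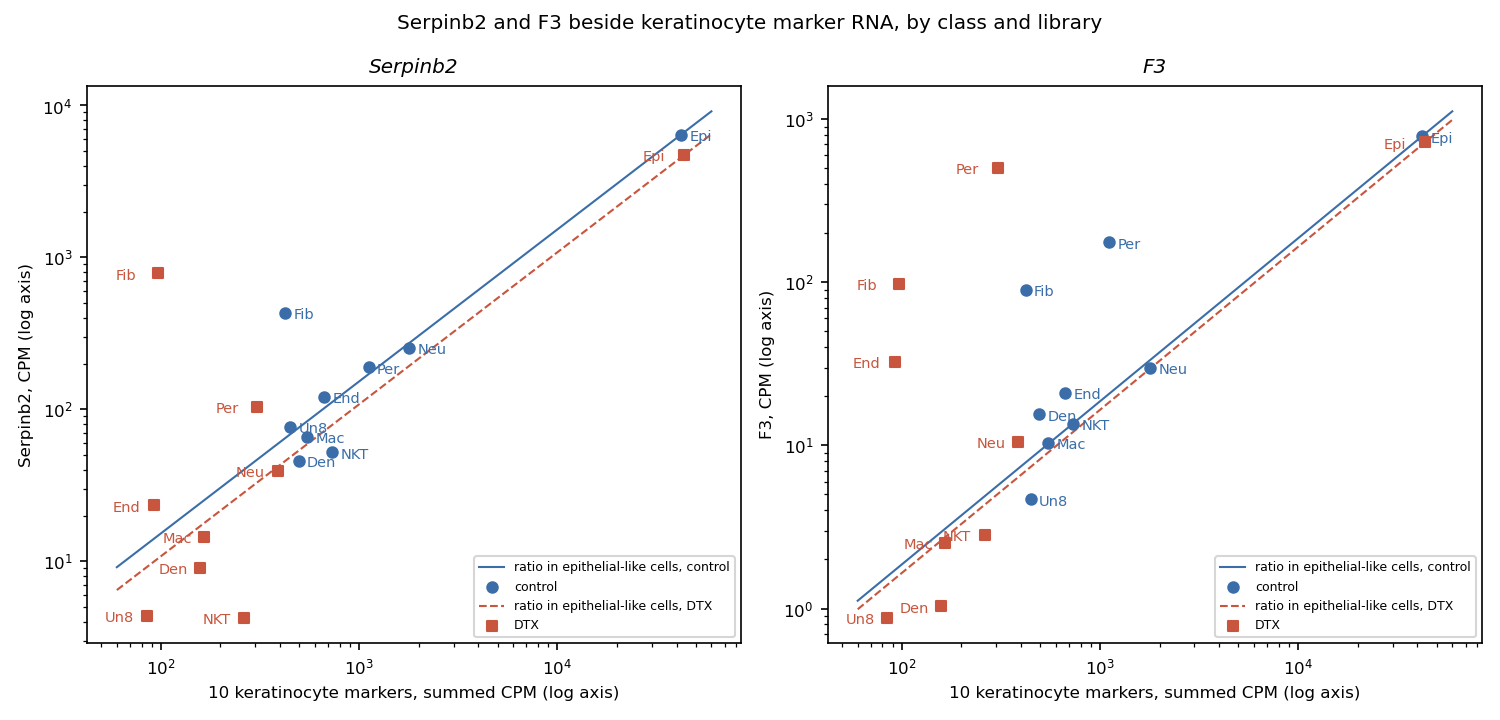
Summed CPM of 10 keratinocyte markers (x axis, log) against CPM of *Serpinb2* or *F3* (y axis, log) in each class of each library, with lines at the ratio of epithelial-like cells, where Mac, Neu, Den, Un8, NKT, Fib, Per, End and Epi stand for the macrophage-, neutrophil- and dendritic-like classes, unnamed cluster 8, and the NK- or T-, fibroblast-, pericyte-, endothelial- and epithelial-like classes. Macrophage-like cells lie near the lines for both genes, and fibroblast-like cells lie far above them.

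The procoagulant *F3* (chromosome 3, 121723537 to 121735048, plus strand) had 784 CPM (774 to 794) in control and 719.6 CPM (693 to 747) in DTX epithelial-like cells, a log2 ratio of -0.12. Its highest level was in the *Igfbp3*- and *Itga2*-led subcluster, at 1539 CPM in 432 control cells and 2370 CPM in 16 DTX cells, followed by the spinous-like one at 880.5 and 1129 CPM. Their ratios were 0.62 (0.50 to 0.75) and 0.36 (0.27 to 0.44), and only the *Lyz2*-led one was lower, at -0.34 (-0.58 to -0.11). At control subcluster shares the ratio of the epithelial-like class was positive, of the opposite sign. Pericyte-like cells came next, and fibroblast-like cells had 89.6 and 97.2 CPM. In macrophage-like cells *F3* was at 10.4 and 2.51 CPM, a ratio of -1.70, from 87 and 77 UMIs, and the count carried by keratinocyte RNA at the epithelial-like ratio would be 98.2% and 108% of those seen. In pericyte-like cells it would be 11.8% and 0.999%. The part of keratinocyte RNA in the *F3* ratios was not tested.

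*F13a1* (chromosome 13, 36867178 to 37050244, minus strand) had 205 CPM (196 to 215) in control and 273 CPM (267 to 279) in DTX macrophage-like cells, a log2 ratio of 0.41 (0.34 to 0.49). In the DTX library the *Vcan*-like (409 CPM) and *Ccl7*-like (392 CPM) subclusters were highest. The control held few such cells: 37 *Vcan*-like cells had 185 CPM and 46 *Ccl7*-like cells had 473 CPM. In the *Ccl8*-led subcluster, the largest of the control, *F13a1* was lower in the DTX library (236 against 139 CPM), and at control subcluster shares the ratio of the class was -0.42, of the opposite sign. The study names *F13a1* among the genes of its *Ccl7* subset, chosen on these cells.

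Since platelets also carry factor XIII, platelet genes were counted in macrophage-like cells. *Gp9* had no UMI in either library, *Gp1bb* had 0 and 1, *Itga2b* 2 and 13 and *Treml1* 4 and 5. *Pf4*, which macrophages also express, had 1010 and 1154 CPM. *Ppbp* was higher in the DTX library, at 5.15 and 53.3 CPM (43 and 1632 UMIs). The part of platelet RNA in the *F13a1* values was not tested. Outside the myeloid classes, fibroblast-like cells held 36.3% of the control and 3.51% of the DTX UMIs of *F13a1*. A UMI of it was found in 4.76% and 7.31% of these cells. The subcluster led by *Igfbp2*, *Ccl8* and *Grem1* had 86.6 and 131 CPM, with a UMI in 10.5% and 15.3% of its cells. Macrophage marker RNA at the ratio of macrophage-like cells would give 17.7% and 9.89% of the *F13a1* UMIs of that subcluster. In epithelial-like cells 24 and 39 UMIs gave 0.843 and 10.0 CPM, a log2 ratio of 2.58. Of the 39 UMIs, 34 lay in 21 cells of a subcluster led by *Lyz2* and *Cd74*, genes of myeloid cells, and without that subcluster the ratio was 0.66.

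The anticoagulant *Thbd* (chromosome 2, 148404466 to 148408188, minus strand) had, after pericyte-like cells, its highest levels in fibroblast-like (95.9 and 94.9 CPM) and endothelial-like cells (74.4 and 71.4 CPM), and neither class as a whole differed between the libraries beyond counting error. Within fibroblast-like cells the log2 ratio was -0.26 (-0.39 to -0.13) in the *Plac8*-like and -0.78 (-1.25 to -0.35) in the *Ctla2a*-led subcluster. It was 0.51 (0.05 to 0.96) in the *Crabp1*-like one, and the others did not differ beyond counting error. Macrophage-like cells had 35.4 CPM (31.5 to 39.7) and 56.6 CPM (54.0 to 59.3), a log2 ratio of 0.66. In the *Ccl8*-led subcluster, the largest of the control, *Thbd* was at 38.1 and 48.1 CPM, a ratio of 0.33 (-0.02 to 0.67). Within the DTX library the *Cd9*-like subcluster was highest, at 91.8 CPM. With the large macrophage-like class of the DTX library, 41.0% of its *Thbd* UMIs came from these cells, against 7.05% in the control.

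*Procr* (chromosome 2, 155751117 to 155755471, plus strand) went in opposite directions in different classes. It was 2-fold lower in macrophage-like cells (112 and 54.4 CPM, log2 ratio -1.02), in cluster 8 (57.5 and 18.4 CPM, -1.60) and in epithelial-like cells (174 and 73.7 CPM, -1.23), with keratinocyte RNA at the epithelial-like ratio giving 2.03% and 0.512%, and fibroblast RNA at the fibroblast-like ratio 2.76% and 1.84%, of its UMIs in macrophage-like cells. Fibroblast-like cells had 310.4 and 373 CPM and dendritic-like cells 167 and 136 CPM. The epithelial-like cells with most *Procr*, those of the *Igfbp3*-led subcluster (424 and 333 CPM), made up 20.9% of the class in the control and 6.81% in the DTX library, and at control subcluster shares the ratio was -0.43. That of macrophage-like cells was then -0.83, and -0.92 with 10 CPM added. In the *Apod*-led fibroblast-like subcluster *Procr* had 11 UMIs in 20 control cells and 269 in 24 DTX cells, 88.9 and 1454 CPM, with 30.1% of the 269 in 1 cell.

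Of the 45 other genes of the pathway, the substrate was all but missing from these cells: plasminogen (*Plg*) had 2 UMIs in the control and 0 in the DTX library. In macrophage-like cells 20 were measured and 3 were 2-fold higher in the DTX library, namely *F10* (88.1 and 203 CPM), which encodes coagulation factor X, *F5* (6.34 and 16.8 CPM), which encodes its cofactor, and *Eno1* (207 and 432 CPM), a glycolytic enzyme that can bind plasminogen at the cell surface. None was 2-fold lower. The study lists *F10* and *F5* among genes of its *Vcan* subset, chosen on these cells.

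In fibroblast-like cells 22 were measured. *Vtn*, which encodes the matrix protein vitronectin, had 3.20 and 29.4 CPM (log2 ratio 2.86), the transglutaminase *Tgm2* 14.4 and 46.4 CPM (1.63), and *F10* 0.742 and 4.22 CPM (1.58), while *Serpina10*, an inhibitor of factor X, had 7.34 and 2.57 CPM (-1.22). *Mrc1* was also higher in this class, at 2.94 and 15.2 CPM (2.04), and the sum of 10 macrophage markers was 1703 and 1113 CPM. *Apoe*, among these markers, was also a leading gene of the *Ctla2a*-led fibroblast-like subcluster. That subcluster made up 24.4% of control and 9.28% of DTX fibroblast-like cells, so the sum can hold RNA of the class itself. At the macrophage-like ratio these markers would give 717% and 286% of the *F10* UMIs and 130.3% and 63.3% of those of *Tgm2*, but at most 0.0198% of those of *Vtn*. A share over 100% means that the macrophage-like ratio gave more UMIs than were seen, so that ratio did not hold there. In endothelial-like cells 14 were measured, and *Tgm2* was higher in the DTX library, at 179 and 383 CPM. *Tgm2* was also the only 1 of 15 to be 2-fold higher in epithelial-like cells (2.53 and 14.4 CPM). *Mrc1*, itself 1 of the 10 macrophage markers, was at 2.84 and 15.7 CPM there, and the 10 summed to 5037 and 4461 CPM. *Apoe* was also among the leading genes of an epithelial-like subcluster, so this sum too can hold RNA of the class itself. At the macrophage-like ratio they would give 2189% and 817% of the *Tgm2* UMIs, so that ratio did not hold there either. The part of macrophage RNA in these ratios was not tested. In pericyte-like cells none of the 14 measured passed 2-fold in either direction, with a median log2 ratio of -0.21, beside 0.77 for the measured members.

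In dendritic-like cells *F7* (26.4 and 11.6 CPM) and *Pros1* (23.9 and 10.6 CPM), which encode factor VII and protein S, were 2-fold lower among 13 measured, and in cluster 8 *Entpd1* (54.4 and 19.2 CPM), an ecto-enzyme that breaks down ATP and ADP, was among 11. None of the 9 measured in neutrophil-like and the 8 measured in NK- or T-like cells passed 2-fold.

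Across the 18 profiles of 9 classes in 2 libraries, the genes most like each member were ranked by Pearson's r of log2(CPM + 1) among 12142 genes with at least 200 UMIs. The profiles share libraries and cells, so r is a description. For *Plaur* they were *Tlr4* (0.92), *Abca1* (0.91) and *Gda* (0.90), for *Serpinb2* *Tmem45a* (0.96), *Sox9* (0.96) and *Pak3* (0.93), and for *F13a1* they included *Arap1* (0.93) and *Emilin2* (0.89). *F3* was most like *Map1lc3a* (0.95), *Il33* (0.94) and *Gnai1* (0.93), *Thbd* most like *Ccl2* (0.93), *Wfs1* (0.91) and *B3galnt1* (0.90), and *Procr* was close to *Mamld1* (0.90) and *Tpm1* (0.90). *Plau* came closest to *Pam*, *Col4a1* and *Laptm4a* (0.93, 0.93 and 0.92), *Plat* to *Rab12*, *Srr* and *Nrep* (0.97, 0.96 and 0.95), and *Serpine2* to *Emid1*, *Aoc3* and *Egflam* (0.95, 0.95 and 0.94). Between members, r was highest for *Serpinb2* with *F3* (0.87) and for *Plau* with *Thbd* (0.86).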

How the data were processed

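Per the labels and the methods, 10x Genomics 3′ v3 libraries were aligned to mm10 with Cell Ranger (6.1.1 in the file header and the submitters' processing notes, another version in the methods), and what the authors deposited were whole-number UMI counts for every gene in each cell, without scaling. Cells needed 500 or more genes and no more than 6% mitochondrial UMIs, and doublets were scored per library with Scrublet in scanpy 1.11.5 (expected rate 8%). Clusters were found in R 4.3.3 with Seurat 5.3.0 (2000 variable genes without the 54 pathway genes, 30 components, resolution 0.2, and 0.5 or 0.2 for subclusters) and named from marker lists. MHC class II genes alone gave no name, a rule added after clusters were seen, as was the split of pericyte-like cells. UMIs were summed per class and library and divided by the class total (CPM), and log2 ratios had 1 CPM added. Exact Poisson, conditional binomial and Clopper-Pearson intervals (95%) came from scipy 1.17.1. A gene with at least 50 UMIs in a class was measured, a ratio of at least 2-fold was called, and 3 counts were taken as the limit behind a count of 0. Simulated counts with known folds were used to test the ratios. Named genes were the 9 members, other pathway genes past 2-fold, the 3 genes most like each member, markers and *Mrc1*. A few genes that this rule names are not reported here. Members, lists and alternatives were chosen with earlier results of these data known. Deposited columns of unknown samples numbered 0. Gene positions are from GENCODE vM21. Whether a library joins technical replicates is not given in the sources used here.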

Additional observations from a re-analysis of the deposited data

Results flagged for a closer look

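*F3* was at least 2-fold higher in pericyte-like cells of the DTX library (log2 ratio 1.52) and at least 2-fold lower in its macrophage-like cells (-1.70). *Procr* was likewise higher in pericyte-like cells (1.01) and lower in macrophage-like cells (-1.02), in unnamed cluster 8 (-1.60) and in epithelial-like cells (-1.23). They are given here because the same gene went in opposite directions in different classes. The difference between classes was not tested, since each group had 1 library. In macrophage-like cells, keratinocyte markers at the epithelial-like ratio would give 98.2% and 108% of the *F3* UMIs seen. With DTX subclusters weighted as in the control, *Procr* was under 2-fold in pericyte-like (0.79), macrophage-like (-0.83) and epithelial-like cells (-0.43), with its directions kept.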

How the results depend on the processing

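The larger changes in the counts of members past 2-fold were as follows, and smaller ones are not listed. Besides these, *Procr* in pericyte-like cells fell under 2-fold with up to 10% mitochondrial UMIs and with cells weighted equally, as given above. With 10 CPM added, epithelial-like cells had 0 higher in place of 1 and macrophage-like cells 1 lower in place of 3. With at least 100 UMIs required, there were 0 higher in epithelial-like and 0 lower in neutrophil-like cells, and with at least 20 UMIs 2 lower in neutrophil-like cells in place of 1. Without doublet removal 2 were lower in epithelial-like and 2, not 4, higher in pericyte-like cells. With at most 2000 genes per cell, the limit of the methods, 2 were higher in fibroblast-like cells in place of 1, *Serpine2* (3.03) and *Procr* (2.76), and most classes had too few cells to compare. Of 3 alternatives chosen after seeing the data, leaving out mixed subclusters gave 0 higher in epithelial-like cells and left too few control pericyte-like cells, weighting DTX subclusters as in the control gave 0 lower in epithelial-like, 0 higher in fibroblast-like and 2 higher in pericyte-like cells, and weighting cells equally kept 15 of 17 calls. Among the smaller classes, dendritic-like cells had 2 lower in place of 1 without doublet removal, with up to 10% mitochondrial UMIs and at resolution 0.4 (there with 1 higher in place of 0), and 3 with at least 20 UMIs. NK- or T-like cells had 1 higher in place of 0 without doublet removal and 2 and 0 lower in place of 1 with at least 20 and 100 UMIs, cluster 8 had 1 lower in place of 2 with at least 100, and endothelial-like cells had 1 higher in place of 0 without doublet removal and 2 lower in place of 1 with cells weighted equally. All 17 calls were kept when all variable genes were used for clustering and when ratios were centred on the class median. With DTX subclusters weighted as in the control, 6 of the 11 calls in classes with subclusters were kept and 1 was gained, *Plat* lower in macrophage-like cells. The causes of these changes were not tested. Shares of cells with a UMI moved beyond their interval in 22 of 38 cases at 2000 UMIs and in 26 without thinning. No paired analysis was possible because each group had 1 library, and for the same reason no replicate could be left out.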
